A study of Mus musculus with 6 samples.

Results

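Meg3, Rian and Mirg are long noncoding RNAs of the imprinted Dlk1-Dio3 domain on mouse chromosome 12, and several box C/D snoRNAs are encoded among them. The small RNA fragments counted here under these genes were taken as 14 transcript rows, listed by identifier, out of the 1059 rows of the deposited table of other RNA. The rows belong to 8 loci: Meg3 (1 row), Rian (4 rows), Mirg (4 rows), B830012L14Rik (1 row) and the snoRNAs AF357425, AF357428, Gm23736 and Gm22962 (1 row each). Rows of Rian and of Mirg share exons, so loci are the unit and any count of rows repeats a locus. Of the 8 loci, 7 lie in the domain. Gm22962 lies elsewhere, on chromosome 9, and is a near-identical copy of AF357425.

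Small RNA was sequenced from cells isolated from the urinary bladder of mice. The CYP group received cyclophosphamide, an alkylating agent with a bladder-toxic metabolite, 4 times at 80 mg/kg into the peritoneum (days 2, 4, 6 and 8), and its source label gives 8 days after induction. The Control group received intraperitoneal saline. Mice of both groups were 8 weeks old, each group has 3 libraries made from 100 ng of total RNA, and the sources used here give neither strain nor sex, nor whether a library is 1 animal or a pool. P-values therefore measure the spread between these libraries, which may be technical. The series compares small RNAs of bladder cells between cyclophosphamide cystitis and controls.

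In this domain the noncoding RNAs are transcribed from the maternal chromosome, while the protein genes Dlk1, Rtl1 and Dio3 are expressed from the paternal one. Meg3 is a nuclear long noncoding RNA that has been linked to p53 and to silencing of Dlk1. Rian, also called Meg8, carries box C/D snoRNAs in its introns, and Mirg, also called Meg9, contains miRNA hairpins. Box C/D snoRNAs usually guide ribose methylation of ribosomal RNA, but those of this domain have no known ribosomal target. Short fragments of any of these transcripts can enter a small RNA library, so the counts below are of fragments and not of full-length transcripts.

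Of the 4 snoRNA loci 3 had the furthest log2 fold changes below 0, and a pair of them is nearly identical, so the sequences of all 4 are shown, with AF357341, the other domain snoRNA that has a row in the table. Sequences are those of the GENCODE M21 transcripts on mm10, plus strand, 5′ to 3′. The capitals mark the box C core TGATGA, searched in the first 20 bases, and box D, CTGA, searched in the last 20 bases, on the strand of the gene. AF357425 lies at chr12:109636012-109636084, AF357428 at chr12:109679945-109680013, Gm23736 at chr12:109680800-109680874, AF357341 at chr12:109681519-109681593 and Gm22962 at chr9:68510163-68510235.
AF357425: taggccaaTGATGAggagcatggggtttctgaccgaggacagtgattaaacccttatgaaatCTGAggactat
Gm22962: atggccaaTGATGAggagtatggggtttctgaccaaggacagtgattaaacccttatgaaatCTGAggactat
AF357428: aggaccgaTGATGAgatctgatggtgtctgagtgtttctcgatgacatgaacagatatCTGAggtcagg
Gm23736: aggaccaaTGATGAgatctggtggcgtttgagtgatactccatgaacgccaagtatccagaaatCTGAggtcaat
AF357341: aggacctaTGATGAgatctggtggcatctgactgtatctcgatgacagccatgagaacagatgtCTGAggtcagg

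Both boxes were found in all 5, and in 224 (65.3%) of the 343 annotated mouse snoRNAs of 60 to 90 bases. AF357425 and Gm22962 are identical at 69 of 73 bases (94.5%). Counted from 1 at the 5′ end and with the AF357425 base first, they differ by T1A, A2T, C19T and G35A, and their longest shared run is 38 bases. A fragment that falls inside that run cannot be placed at one of them, so the counts of both are uncertain. AF357428 and Gm23736 are identical at 76.0% of aligned bases, with a longest shared run of 13 bases, and AF357428 and AF357425 at 61.0% with a longest run of 8 bases. Gm22962 lies within the span of 4930502A04Rik, a long noncoding RNA gene on chromosome 9. AF357425 lies whole inside the single exon of the Rian-209 transcript, so these 2 rows can compete for the same fragments.

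**Figure D1:**
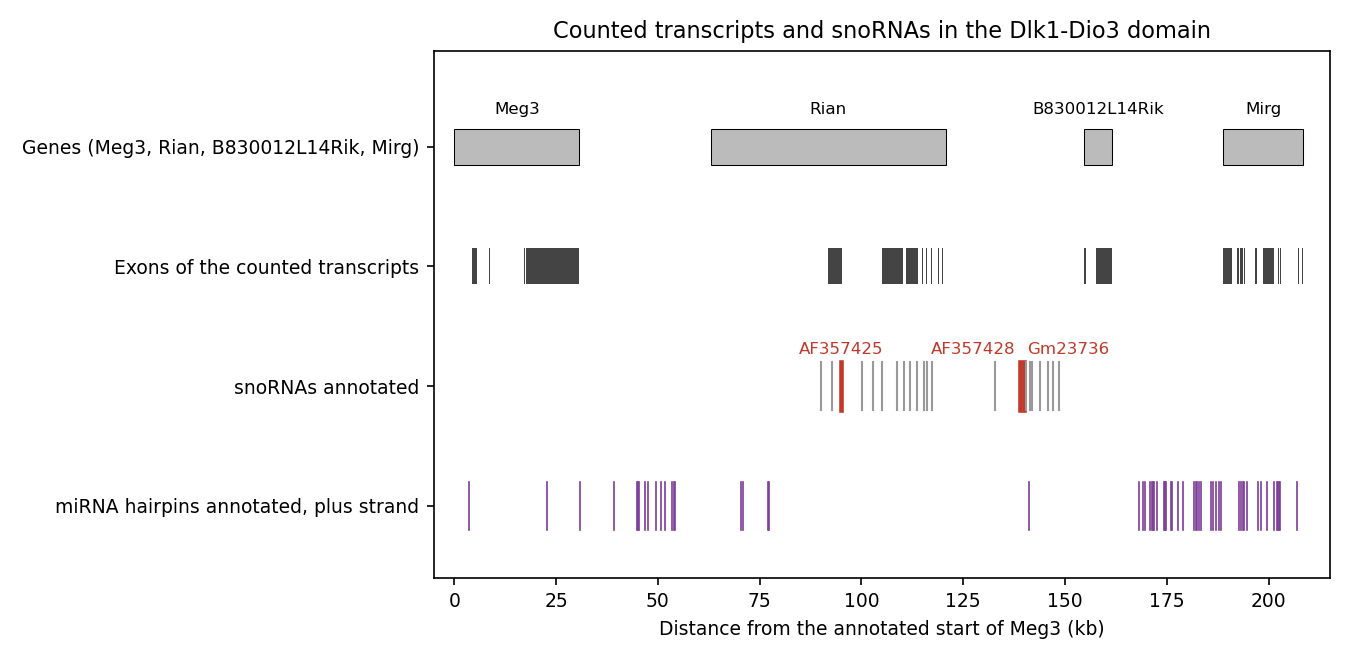
Map of the domain in kb from the annotated start of Meg3, with gene spans (grey), exons of the counted transcripts (black), annotated snoRNAs (grey ticks, those counted here in red) and miRNA hairpins (purple). AF357425 lies within Rian, and AF357428 and Gm23736 lie between Rian and B830012L14Rik, 138.9 and 139.8 kb from the start of Meg3.

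The gene annotation holds 23 snoRNAs between the start of Meg3 and the end of Mirg, and 4 of them have a row in the table. The table holds only rows that reach 10 UMIs in at least 1 library, so the other snoRNAs are not analysed here. AF357341 had 0, 7 and 5 UMIs (unique molecular identifiers, tags that mark single cDNA molecules) in the CYP libraries and 13, 10 and 0 in the Control libraries, and it did not pass the filter for testing. Rian-201 contains 3 other annotated snoRNAs in its exons, and Rian-209 contains Gm23474 beside AF357425. Exons of the Mirg rows overlap 8 annotated miRNA hairpins, among them Mir134, Mir382 and Mir485, and the Meg3 row overlaps Mir770, so counts of these rows can include hairpin flanks.

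The table of other RNA held 1615522, 1617505 and 1253844 UMIs in CYP replicates 1 to 3 and 817756, 1012031 and 1407487 UMIs in Control replicates 1 to 3, with 1.05 to 1.09 reads per UMI. The reads of all rows came to between 99.1% and 99.4% of the authors' class total, so a read was counted in 1 row. Fragments of 18S and 45S ribosomal RNA took 73.0% to 74.5% of the UMIs in CYP libraries and 62.0% to 69.3% in Control libraries (exact two-sided permutation p = 0.1, the smallest that 3 against 3 allows). Reads too short to be counted were 14.1 ± 1.40% of all reads in CYP and 9.95 ± 2.78% in Control (SD, n = 3 each, exact two-sided permutation p = 0.1). Control replicate 1 stood apart, with 12.9% of its reads on tRNA and the smallest other RNA total, against tRNA shares of 3.93% to 6.89% in the other 5 libraries. Markers of smooth muscle (miR-143-3p and miR-145a-5p) took 25% to 28.1% of miRNA UMIs and 6 epithelial markers took 3.82% to 4.66%, and no marker of the 9 cell types checked was at 0 in any library. Levels are normalised CPM, UMIs per 1000000 of the library's effective total after edgeR's trimmed-mean (TMM) scaling, and error is the SD over 3 libraries unless named otherwise. In bulk samples fewer cells of a type and less RNA per cell cannot be told apart.

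No locus passed edgeR's quasi-likelihood test at a Benjamini-Hochberg adjusted p below 0.05, and neither did any other row of the table. Of the 673 features tested with each locus summed, 0 were called (0%), 81 (12%) had an unadjusted p below 0.05, and DESeq2 called 16 of the 321 features to which it gave an adjusted p (4.98%). All 8 loci passed the filter on low counts. The log2 fold change of CYP over Control lay below 0 for 7 of the 8, with a median of −0.63, against 51.4% of all features tested. Scaled to miRNA totals, which moved the median of all rows by 0.36, 5 of the 8 lay below 0 with a median of −0.26, and without Control replicate 1 the median was −0.41. Of the 14 rows, 13 lay below 0, against 51.7% of all rows tested, whose median was −0.03. Rows of Rian and of Mirg share exons, so these 14 rows are not separate members. For 4 of the 8, Rian, Mirg, AF357425 and Gm22962, all 3 CYP libraries lay below all 3 Control libraries, which held for 12.9% of all features tested. Of the 14 rows, again not separate members, 7 did so, against 13.3% of all rows. The unadjusted p was below 0.05 with a lower level in CYP for 4 of the 8, AF357425, Gm22962, Rian and Gm23736, and for 8.47% of all features. AF357425 and Gm22962 are near-identical and may hold the same fragments, so they may not be separate among the 8. With both summed into 1 feature, a setting chosen after seeing the data, 6 of 7 loci lay below 0, with a median of −0.47. Together the 14 rows held 0.0542% to 0.0682% of the other RNA UMIs in CYP libraries and 0.0975% to 0.136% in Control libraries. The 95% exact binomial interval of the highest CYP share was 0.0637% to 0.0729% and that of the lowest Control share 0.0924% to 0.103%, for counting error only.

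**Figure D2:**
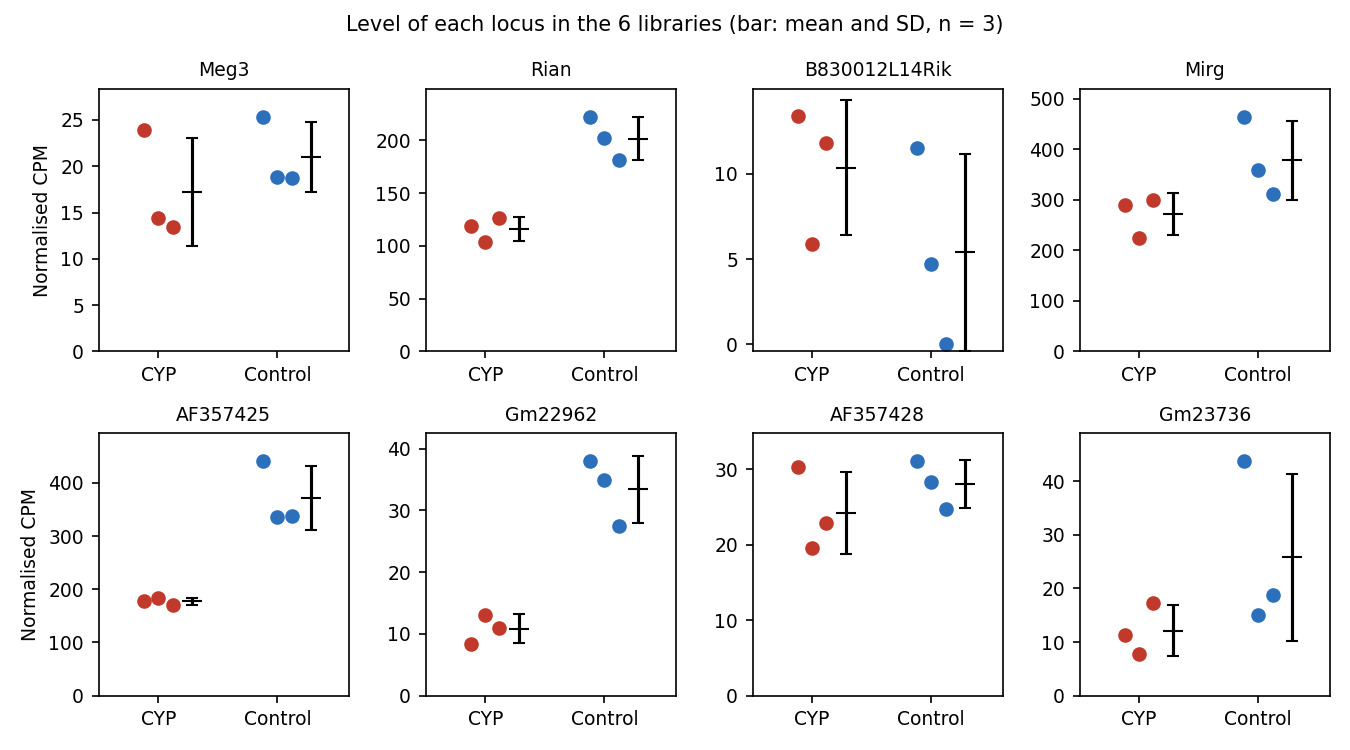
Normalised CPM of each locus in the 3 CYP (red) and 3 Control (blue) libraries, with mean and SD beside the points. The groups do not overlap for Rian, Mirg, AF357425 and Gm22962, and they overlap for Meg3, B830012L14Rik, AF357428 and Gm23736.

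Meg3, the first gene of the maternal transcripts, was at a low level. Its row, ENSMUST00000146701, had 23.9, 14.4 and 13.4 normalised CPM in CYP replicates 1 to 3 and 25.3, 18.9 and 18.8 in Control replicates 1 to 3. The highest CYP library lay among the Control libraries. The mean was 17.2 ± 5.81 in CYP and 20.98 ± 3.75 in Control, a log2 fold change of −0.26 ± 0.30 (SE, edgeR adjusted p = 0.742). The row had 17 to 34 UMIs in each library. Scaled to the libraries' miRNA UMI totals, the sign turned, at a log2 fold change of 0.094.

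Rian, whose span holds AF357425 and none of the other 3 snoRNA loci, had 118.9, 103.4 and 126.0 normalised CPM over its 4 rows in the CYP libraries and 222.0, 201.9 and 180.9 in the Control libraries. All 3 CYP libraries lay below all 3 Control libraries. The mean was 116 ± 11.6 in CYP and 202 ± 20.6 in Control, 1.73-fold lower in CYP (log2 fold change −0.79 ± 0.20 SE, edgeR adjusted p = 0.229), with −0.43 when scaled to miRNA totals. The sum rests mainly on Rian-213 (ENSMUST00000182981), a spliced transcript of 8 exons, which held 62.7% to 74.6% of the Rian UMIs. Rian-213 had 88.8, 69.1 and 84.4 normalised CPM in CYP libraries and 137.9, 139.0 and 115.7 in Control libraries, a log2 fold change of −0.69. Rian-209 (ENSMUST00000182406) had 10.6, 13.8 and 10.3 normalised CPM in CYP libraries and 25.1, 19.9 and 24.7 in Control libraries, a log2 fold change of −0.997. Rian-201 (ENSMUST00000180876), a row of 2 exons, had 11.98, 11.2 and 21.3 in CYP libraries and 25.1, 33.1 and 25.4 in Control libraries (−0.92). Rian-211 (ENSMUST00000182737) had 7.75, 9.87 and 10.3 in CYP libraries and 31.9, 10.4 and 14.7 in Control libraries (−0.99), and without Control replicate 1 its log2 fold change was −0.45. In each of the 4 rows every CYP library lay below every Control library, in Rian-211 by 10.3 against 10.4 normalised CPM at the closest. The same held for 13.3% of all rows tested. Rian-213, Rian-201 and Rian-211 share 646 to 684 exonic bases in pairs, so they are not separate measurements.

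Mirg, whose GENCODE span holds 14 miRNA hairpins, had the highest summed level of the 8 loci in CYP libraries, not taken per length. In Control its mean lay within the spread of that of AF357425. Its 4 rows summed to 290.5, 225.2 and 300.1 normalised CPM in CYP libraries and 463.6, 359.5 and 311.5 in Control libraries. The groups came close, the highest CYP library at 300.1 and the lowest Control library at 311.5. The mean was 272 ± 40.8 in CYP and 378 ± 77.7 in Control, 1.39-fold lower in CYP (log2 fold change −0.47 ± 0.22 SE, edgeR adjusted p = 0.404), and −0.087 when scaled to miRNA totals. Mirg-212 (ENSMUST00000183144), the row with the most exons, 17, held 31.2% to 40.9% of the UMIs. It had 114.2, 81.6 and 93.9 normalised CPM in CYP libraries and 159.5, 147.5 and 107.0 in Control libraries, with overlapping groups and a log2 fold change of −0.51. Mirg-201 (ENSMUST00000181496), which shares at most 166 exonic bases with another row and overlaps Mir377, had 42.3, 30.3 and 51.3 normalised CPM in CYP libraries and 80.9, 62.4 and 58.2 in Control libraries, with no overlap between groups and a log2 fold change of −0.70. Mirg-204 (ENSMUST00000182185) had 66.9, 50.7 and 62.3 in CYP libraries and 90, 73.8 and 62.9 in Control libraries. Mirg-208 (ENSMUST00000182499) had 67.7, 63.8 and 93.1 in CYP libraries and 128.7, 76.6 and 82.95 in Control libraries. These rows had overlapping groups and log2 fold changes of −0.32 and −0.35, and both turned to above 0 (0.042 and 0.043) when scaled to miRNA totals.

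B830012L14Rik, a long noncoding RNA gene between Rian and Mirg, was the 1 locus with a log2 fold change above 0. Its row, ENSMUST00000182785, had 19, 9 and 15 UMIs in CYP libraries and 10, 5 and 0 in Control libraries. The 0 in Control replicate 3 allows up to 2.00 CPM, taking 3 counts as the limit for counting error only. The means were 10.4 ± 3.94 normalised CPM in CYP and 5.41 ± 5.78 in Control, the groups overlapped, and the log2 fold change was 1.04 ± 1.05 (SE, edgeR adjusted p = 0.699). It was 2.15 without Control replicate 1 and 0.36 without Control replicate 3.

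AF357425, the one of the 4 snoRNAs that lies inside Rian, was the most abundant of them. Its row, ENSMUST00000157669, had 177.3, 184.6 and 170.9 normalised CPM in CYP libraries and 440.6, 335.9 and 337.0 in Control libraries, from 217 to 282 UMIs and from 356 to 503 UMIs. All 3 CYP libraries lay below all 3 Control libraries, and the CYP libraries differed little among themselves. The mean was 178 ± 6.83 in CYP and 371 ± 60.1 in Control, 2.09-fold lower in CYP (log2 fold change −1.06 ± 0.20 SE, edgeR adjusted p = 0.0695). Relative to miRNA UMIs, a scale that leaves ribosomal fragments out, AF357425 had 22, 27.2 and 23.1 UMIs per 1000000 in CYP libraries. In Control libraries it had 34.7, 39.1 and 41.3 per 1000000. On that scale the log2 fold change was −0.67 (edgeR adjusted p = 0.152).

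Gm22962 (ENSMUST00000157962), the copy on chromosome 9, had 8.44, 13.1 and 11.0 normalised CPM in CYP libraries and 38.0, 34.9 and 27.5 in Control libraries. The groups stood well apart although the counts were small, 12 to 20 UMIs in CYP and 33 to 41 in Control. The mean was 10.9 ± 2.33 in CYP and 33.4 ± 5.40 in Control, 3.02-fold lower in CYP (log2 fold change −1.60 ± 0.27 SE, edgeR adjusted p = 0.0695). Its count was 4.76%, 7.09% and 6.45% of that of AF357425 in CYP libraries and 8.62%, 10.4% and 8.15% in Control libraries. The sources used here do not say how the authors' counting split fragments between the 2 near-identical sequences. With both summed into 1 feature the log2 fold change was −1.10 (edgeR adjusted p = 0.0774), a setting chosen after seeing the data.

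AF357428 (ENSMUST00000083815) and Gm23736 (ENSMUST00000082553) lie next to each other beyond the end of Rian, and neither passed the test. AF357428 had 30.2, 19.6 and 22.8 normalised CPM in CYP libraries and 31.1, 28.3 and 24.8 in Control libraries, with overlapping groups and a log2 fold change of −0.20 ± 0.25 (SE, edgeR adjusted p = 0.779). Gm23736 had 11.3, 7.85 and 17.3 in CYP libraries and 43.7, 15.1 and 18.8 in Control libraries. Control replicate 1 alone was far above the others, and without it the log2 fold change moved to −0.51, against −1.06 ± 0.44 (SE, edgeR adjusted p = 0.361) with it. The difference between the 2 snoRNAs was not tested.

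Levels of different loci were divided by exon length to set them side by side. The counts are of short fragments and can include hairpin flanks for Mirg and Meg3. These values are therefore not levels of whole transcripts. Per kb of exon, AF357425 had 2430 normalised CPM in CYP and 5080 in Control, AF357428 351 and 407, Gm23736 162 and 345, and Gm22962 149 and 458. The long RNAs were far lower per kb, Mirg at 43.9 in CYP and 61.1 in Control, Rian at 9.57 and 16.6, B830012L14Rik at 2.3 and 1.2, and Meg3 at 1.19 and 1.44. The order AF357425, AF357428, then Mirg, Rian and Meg3 was the same in both groups, while Gm22962 lay below AF357428 and Gm23736 in CYP and above both in Control. In the Control libraries these 3 snoRNAs lay within their spread, as did B830012L14Rik and Meg3, which changed places.

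**Figure D3:**
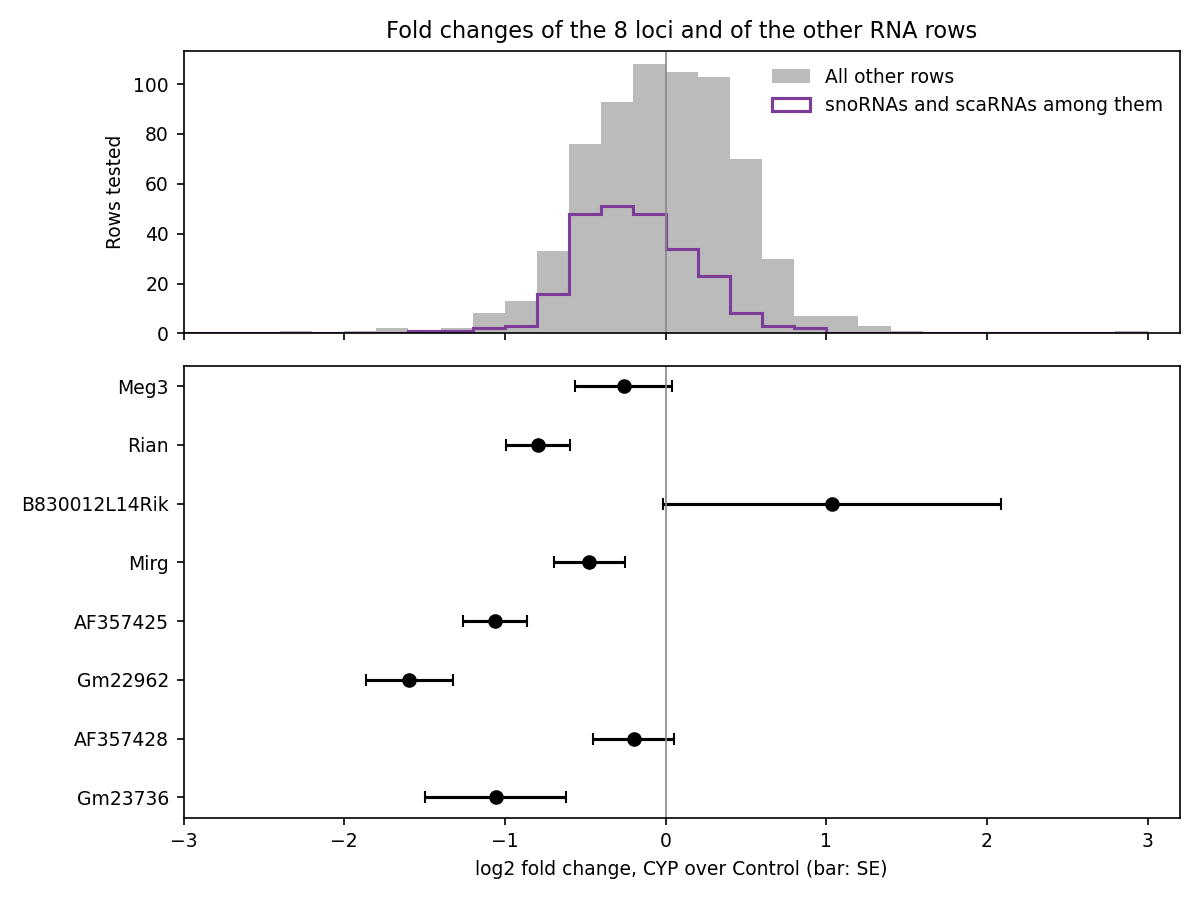
Top, numbers of other RNA rows by log2 fold change of CYP over Control (grey, rows outside the 8 loci, and purple line, snoRNAs and scaRNAs among them). Bottom, the log2 fold change of each locus with its SE, from 1.04 for B830012L14Rik to −1.60 for Gm22962.

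Most other snoRNAs also lay below 0. Of 240 other snoRNA and scaRNA rows tested, 0 passed edgeR's test in either direction, 170 (70.8%) lay below 0, and their median was −0.21. For 20.4% of them all CYP libraries lay below all Control libraries. None of the 240 lay further below 0 than Gm22962 (−1.59 in the table of single rows), 4 (1.67%) lay further below 0 than AF357425 and 126 (52.5%) lay further below 0 than AF357428. Of the 242 other long noncoding RNA rows tested, 0 passed, 124 lay below 0 and the median was −0.02. Of a list of other imprinted and X-inactivation RNAs, Xist, Jpx and Ftx had rows and Xist, the RNA that coats the inactive X, passed the filter, at 86.9 ± 19.7 normalised CPM in CYP and 50.4 ± 11.7 in Control (log2 fold change 0.80, edgeR adjusted p = 0.239).

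Scaling to other RNA totals includes the ribosomal share, which was higher in every CYP library. Without the 18S and 45S rows, a setting chosen after seeing the data, the log2 fold change was −0.97 for AF357425, −0.71 for Rian and −1.51 for Gm22962. The summed level of 3 fibroblast miRNAs ran from 17150 to 20700 CPM in CYP libraries and from 22050 to 23250 in Control libraries, with 0 of the 3 called. Striated muscle markers ran from 36310 to 37860 in CYP and from 38360 to 44460 in Control (0 of 3 called), red cell markers from 315 to 342 in CYP and from 452 to 588 in Control (2 of 3 called lower), lymphocyte markers from 525 to 538.7 in CYP and from 788 to 1066 in Control (1 of 2 called lower), and neuronal markers from 394 to 447 in CYP and from 461 to 563 in Control (1 of 3 called lower). Smooth muscle, epithelial, endothelial and myeloid sums overlapped between groups, with 1 of 6 epithelial markers called higher and none of the others called. Of all 885 miRNAs tested, 6.67% were called higher in CYP and 5.65% lower. Neither the ranges of the sums nor the part of short reads or cell types in these differences was tested.

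Removing Control replicate 1, the library that stood apart, gave calls. Without it AF357425 had a log2 fold change of −0.93 (edgeR adjusted p = 0.00413, with 1.69e-05 to 0.633 across alternatives), Gm22962 −1.50 (edgeR adjusted p = 0.00824, range 0.00458 to 0.633) and Rian −0.73 (edgeR adjusted p = 0.0331, range 0.0101 to 0.688), with 18 of 748 features called (2.41%) and 17 of 754 rows (2.25%). DESeq2 called AF357425 (−1.01, adjusted p = 1.69e-05) and Rian (−0.75, adjusted p = 0.0101) and gave Gm22962 no adjusted p. With loci summed it called 16 of 321 features (4.98%), and in the separate fit of single rows 14 of 324 (4.32%). AF357425 and Gm22962 also passed with plain library totals (−1.22 and −1.76, both edgeR adjusted p = 0.0311), where 0.446% of features and 0.442% of rows were called. These totals include the ribosomal share, and with them the median of all rows was −0.19, against −0.03 with TMM. Both also passed without a filter on low counts, where 0.38% of features and 0.378% of rows were called. AF357425, Gm22962 and Rian kept a log2 fold change below 0 in all of their alternatives that gave a value, and whether they passed depended on the setting.

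**Figure D4:**
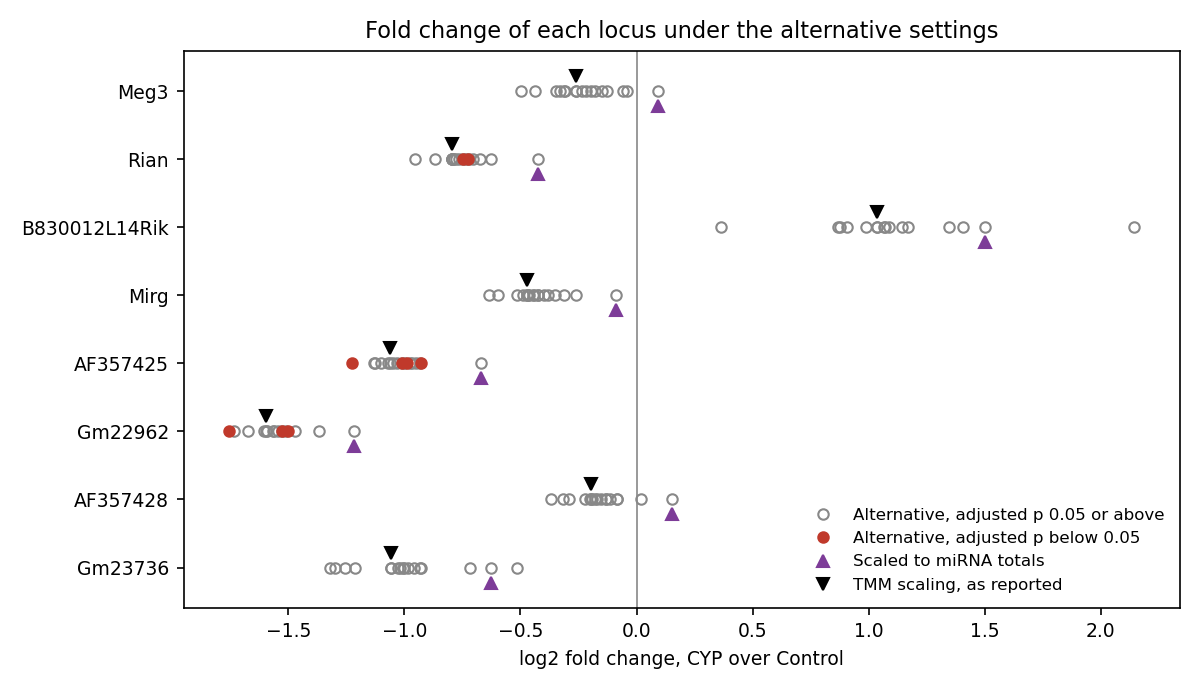
Log2 fold change of each locus as reported (black triangles) and under the alternative settings (circles, red where the adjusted p is below 0.05, and purple triangles where libraries were scaled to miRNA totals). Calls appear for Rian, AF357425 and Gm22962 only, and Meg3 and AF357428 cross 0.

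Short sequences that the authors left uncharacterized give the fragments themselves at 2 places in the domain. They are shown because the other RNA table gives no sequences. Positions in that table count from 0, as 31 of 31 sequences inside annotated hairpins showed, and are given here from 1. The first pair begins 123 and 122 bases before the annotated start of Rian on the same strand, where GENCODE annotates no gene on that strand, and within the RefSeq span of Rtl1, a gene of the other strand. The second pair lies at chr12:109733817-109733838 on the Mir382 hairpin, within the GENCODE span of Mirg. The capitals mark the run shared with miR-382-3p, whose mature sequence from RefSeq (GRCm38.p6) is given last with its seed in capitals.
Rian upstream, chr12:109603817-109603835: cccaggatcacagaaaaag
Rian upstream, chr12:109603818-109603835: ccaggatcacagaaaaag
Mir382, 22 bases: aaTCATTCACGGACAACACTTT
Mir382, 21 bases: aaTCATTCACGGACAACACTT
mmu-miR-382-3p: uCAUUCACggacaacacuuuuu

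The fragment of 18 bases upstream of Rian had 140, 140 and 130 UMIs in CYP libraries and 175, 162 and 182 in Control libraries. Scaled over all uncharacterized sequences, its log2 fold change was −0.52 ± 0.17 (SE, edgeR adjusted p = 0.213). The form with 1 more base at its 5′ end had 0, 7 and 9 UMIs in CYP libraries and 17, 14 and 22 in Control libraries (log2 fold change −1.83 ± 0.85 SE, edgeR adjusted p = 0.426). Of 942 uncharacterized sequences tested, 13 were called (1.38%), none of these 4 among them. After scaling, 11% had all CYP libraries below all Control libraries, as all 4 did. These 4 are 2 pairs whose forms differ by 1 base at an end, so they are not separate members. The Mir382 fragments begin 2 bases before the annotated mature arm, so their seed differs from that of miR-382-3p. They had 133, 123 and 140 UMIs in CYP libraries against 135, 129 and 188 in Control libraries for the form of 22 bases, more than the annotated arm itself, which had 63, 61 and 72 in CYP libraries and 51, 28 and 39 in Control libraries. Their log2 fold changes were −0.34 and −0.46 and that of the annotated arm, scaled over miRNAs, was 0.67 (edgeR adjusted p = 0.0863), a difference that was not tested.

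The miRNAs whose hairpins lie on the same strand within the host spans were tested in the miRNA table, where 109 of 885 miRNAs were called (12.3%; 6.67% higher and 5.65% lower in CYP) and the median log2 fold change was 0.02. Of 21 tested arms within the span of Mirg, 6 fell and none rose, and 14 lay below 0, against 47.2% of all miRNAs, with a median of −0.23. Among the 6, miR-154-5p was at 74.1 ± 11.99 CPM in CYP and 115 ± 4.00 in Control (log2 fold change −0.64, edgeR adjusted p = 0.00726), and miR-369-3p at 43.8 ± 1.75 in CYP and 62.3 ± 0.712 in Control (−0.51, edgeR adjusted p = 0.00786). The most abundant arms within Mirg were miR-382-5p, miR-541-5p and miR-409-3p, with log2 fold changes of −0.23, −0.30 and −0.25, of which miR-541-5p passed (edgeR adjusted p = 0.0444). Host spans are those of GENCODE. In RefSeq, Mirg starts at chr12:109734981, after both arms of miR-382, so some arms counted here lie outside that span. None of the 4 tested arms within Rian and of the 2 within Meg3 passed, with medians of −0.38 and −0.35. In the Rian span miR-341-3p was at 25.6 ± 3.93 CPM in CYP and 29.1 ± 0.481 in Control and miR-370-3p at 13.97 ± 1.47 in CYP and 15.9 ± 1.79 in Control. In the Meg3 span miR-770-5p was at 9.31 ± 0.477 in CYP and 10.96 ± 1.05 in Control. The miRNA and other RNA tables were scaled separately, so the fold changes of hosts and miRNAs are set side by side without a test.

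**Figure D5:**
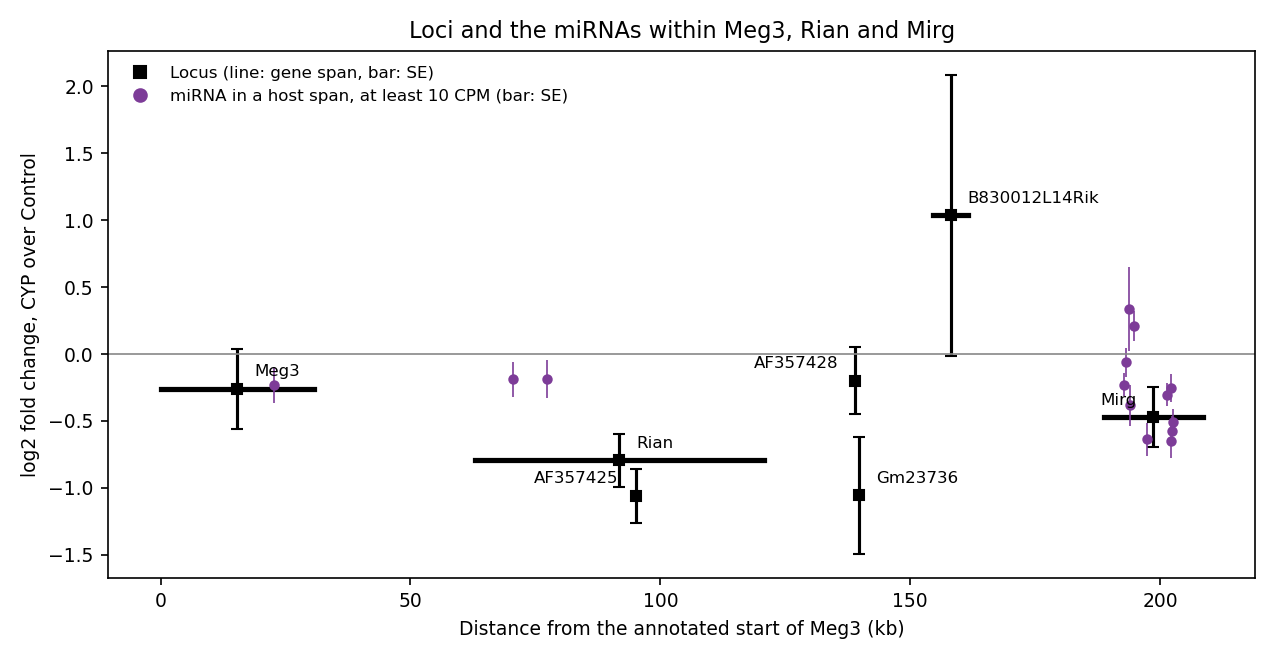
Log2 fold change of CYP over Control against distance from the annotated start of Meg3, for the 7 loci of the domain (black, line for the gene span, bar for SE) and for miRNAs of at least 10 CPM within the spans of Meg3, Rian and Mirg (purple, bar for SE). Loci and most miRNAs lie below 0, with B830012L14Rik at 1.04 the locus above it.

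The rows whose pattern over the 6 libraries was most like that of Mirg, among 560 rows of at least 10 CPM, were those of Mir3068, Gas5 and Tug1 (Pearson's r of log2 levels 0.996, 0.982 and 0.982). Those most like Rian were Snhg5, Gm26135 and ENSMUST00000183744 (0.985, 0.980 and 0.978). These are descriptions over 6 libraries that share depth and ribosomal share, and they were picked as the highest of many.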

How the data were processed

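The deposited tables hold whole-number counts of UMIs and of reads per feature, not normalized, per the file headers, and the authors' summary holds read counts per class. The submitters' processing notes name FastQC 0.11.7, Trim Galore, STAR 2.6, DESeq2 and mm10 without a role, and they name no counting tool. The counting depth per library is in the report, and small counts limit the precision of single rows. UMI counts of the whole other RNA table went through edgeR 4.0.16 under R 4.3.3 (quasi-likelihood test, robust, group as the only term, TMM scaling, minimum count 10 and minimum total count 15), with Benjamini-Hochberg adjustment over all features tested and a threshold of 0.05. For loci, the rows of a gene were replaced by their sum and the fit was repeated. Features of the miRNA and uncharacterized tables were fitted likewise. The fit was tested on simulated data. Alternatives were DESeq2 1.42.0, other scalings and filters, read counts, a replicate block and leaving out each library. Annotation and sequences came from GENCODE M21 and RefSeq GRCm38.p6, and 1024 of 1057 transcript identifiers were matched. The loci and the lists beside them were chosen with earlier results of these data known. All 8 loci are named. Other features are named by rule, at most 4 called ones per list, the 3 most alike for 2 loci and up to 3 abundant miRNAs per host, and the others named were chosen after their values were seen. Replicate numbers were not taken as pairs, since no label says that they pair the samples. The authors' table of fold changes was not used, since it covers miRNAs and piRNAs.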

Additional observations from a re-analysis of the deposited data

How the results depend on the processing

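Counts of calls depended on the setting. edgeR with TMM called 0 of the other RNA rows and 0 loci. Rows and loci were counted in separate fits. DESeq2 called 14 rows (4.32% of rows with an adjusted p) and 2 loci, where 4.98% of features with loci summed were called. Among the loci it gave an adjusted p to Rian, Mirg and AF357425 only. Library totals gave 3 rows (0.442%) and 2 loci, where 0.446% of such features were called. Without a filter on low counts there were 4 rows (0.378%) and 2 loci, where 0.38% of such features were called. Both counts were 0 with RLE factors, upper-quartile factors, miRNA totals, a mean of at least 10 CPM, read counts or fits without robust shrinkage. They were also 0 without ribosomal rows, a setting chosen after seeing the data. Leaving out 1 library at a time gave 0 to 17 rows and 0 to 3 loci, all calls coming without Control replicate 1. Without that library 2.25% of rows and 2.41% of features with loci summed were called. The cause was not tested. Signs turned for Meg3 (0.094), AF357428 (0.15), Mirg-204 (0.042) and Mirg-208 (0.043) when scaled to miRNA totals, and for AF357428 on leaving out a library (−0.32 to 0.019, the highest without CYP replicate 2). Relative to TMM, the median log2 fold change of all rows shifted by −0.16 with library totals, 0.11 with upper-quartile factors and 0.36 with miRNA totals. A replicate block called 0 rows and 0 loci, with 112 rows at an unadjusted p below 0.05 against 84 without it. Same-numbered libraries deviated together with correlations of 0.14, −0.15 and −0.10, which cannot exclude a pairing. The numbers were not taken as pairs. Rian, Mirg, B830012L14Rik, AF357425, Gm22962 and Gm23736 kept their sign in every alternative that gave a value. Meg3, B830012L14Rik, AF357428, Gm23736 and Gm22962 had at most 43 UMIs in a library, which limits the precision of their values.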
